A study of Mus musculus with 5 samples.

Results

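Cardiac progenitors isolated as Nkx2.5-positive at day 7.5 of embryoid body culture were compared with cardiac mesoderm isolated as Flk1-positive at day 4.5, on the array that hybridised them together. The comparison was defined by its array and not by any measured value, and it is 1 of 5 arrays in the series. All 28845 probes of that array that were neither control spots nor empty were examined, and the brightest probe for each gene gave 24800 genes, of which 14960 had a name and 9840 were unnamed transcripts. Nkx2.5 RNA was labelled with Cy5 and Flk1 RNA with Cy3.

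Embryoid bodies are aggregates of mouse embryonic stem cells in which mesoderm and beating heart tissue form in culture. The series sampled 4 marker-positive populations from them: undifferentiated cells (Rex1) on day 0, early mesoderm (Bra) and cardiac mesoderm (Flk1) on day 4.5, and cardiac progenitors (Nkx2.5) on day 7.5. The labels give no strain, line, reporter or treatment, and they do not say how the cells were isolated or how many were pooled. Because each population has its own marker, and Nkx2.5 and Flk1 cells also differ by 3 days, marker and day cannot be told apart.

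Flk1, the product of Kdr, is the VEGF receptor of lateral mesoderm, and Flk1-positive mesoderm gives rise to blood, endothelium and heart. Mesoderm first expresses streak genes such as T, Mixl1 and Eomes, and these are shut off as lineages are chosen. Nkx2-5 encodes a homeodomain factor that marks committed cardiac progenitors and acts with GATA, T-box and MEF2 factors on the genes of the sarcomere, the contractile unit of muscle.

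No pair of populations was hybridised on more than 1 array, and there was no dye swap or replicate, so the values below have no error from samples and the populations could not be tested against each other. The direct reading of a gene is its log2 ratio of Nkx2.5 over Flk1 on the shared array. The second reading comes from other hybridisations, as the log2 ratio of Nkx2.5 over Rex1 minus that of Flk1 over Rex1. Both populations were in Cy5 on those arrays, so a dye effect of a probe is shared there and is not shared on the direct array, where Flk1 was in Cy3. The labels do not say whether arrays shared an RNA preparation. A gene is called higher or lower in Nkx2.5 cells where both readings reached 1 in size, a 2-fold difference, with the brighter population well above the negative control spots. Values are given as direct and then second reading. Net signal is the scanner's median signal of a spot after subtraction of its background, and it is not corrected for dye.

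On the direct array 91.5% of probes were well above background in the Flk1 channel and 95.2% in the Nkx2.5 channel. The median net signal was 0.613 times the background in Cy3 and 1.35 times in Cy5, so background made up a large part of the light of a typical spot. Across the 24 spots of each of 4 control genes the log2 ratio had an SD of 0.0403 for Actb, 0.110 for Gapd, 0.0318 for Rps18 and 0.0813 for Ubb. Of 48 printed blocks of spots, 3 had a median log2 ratio over 0.2 in size, with medians from -0.17 to 0.50.

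Genes called higher in Nkx2.5 than in Flk1 cells included 11 of 38 sarcomere genes, 2 of 5 globins and 3 of 25 endoderm products. Genes called lower included 2 of 27 pluripotency genes, 1 of 14 epiblast genes and 1 of 25 streak genes. In all, 74 genes were called higher, which is 0.298% of those measured, and 21 were called lower, which is 0.0847%. Names were held by 58 of the higher and 15 of the lower genes. The median readings were 1.53 and 1.48 over the higher genes and -1.25 and -1.50 over the lower genes, while over all genes the direct reading had a median of 0.00 and an SD of 0.316. In these bulk samples fewer cells of a type and less RNA per cell cannot be told apart.

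**Figure D1:**
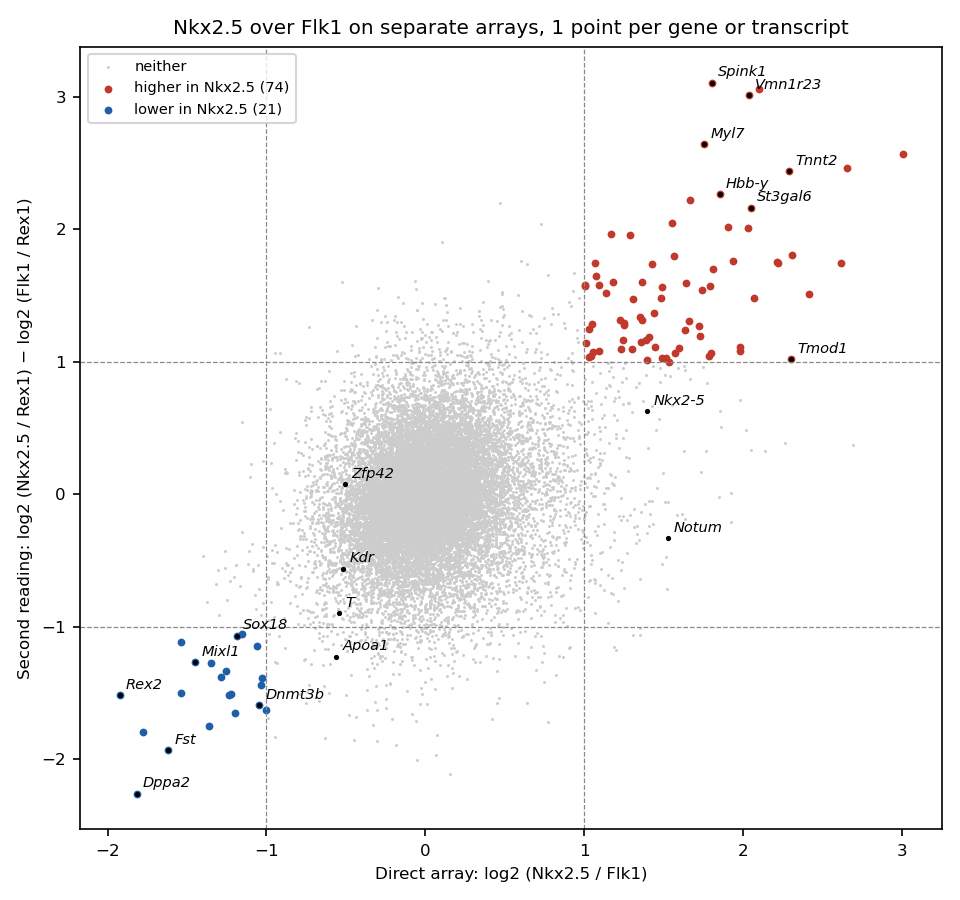
Direct reading (x axis, log2) against second reading (y axis, log2) for each of 24800 genes, with the 74 genes called higher in Nkx2.5 cells in red, the 21 called lower in blue and the size rule of 1 as dashed lines. Black points are selected genes; Tnnt2 lies at 2.29 and 2.44, Dppa2 at -1.82 and -2.26, and most genes form a cloud around 0.

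The calls rest on the second reading as much as on the direct one. The direct reading was also taken alone, with the background limit kept on the direct array and on the brighter population's Rex1 array. By it 285 genes, 1.15% of those measured, reached a log2 ratio of 1. The second reading had the opposite sign in 82 of them. Likewise 51 genes, 0.206%, reached -1, with the opposite sign in 4. The difference between readings had an SD of 0.439 over all genes, above the 0.316 of the direct reading and the 0.392 of the second. With genes in 5 equal bins by brightness the SD of the difference was 0.584 in the dimmest bin and 0.175 in the brightest. A reading of 0.5 is thus within the disagreement of the arrays for a dim gene and nearly 3 times its SD for a bright one. The Pearson correlation of the readings was 0.246 over all genes, 0.147 in the dimmest bin and 0.547 in the brightest. For most genes the second reading thus repeated the direct one weakly.

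**Figure D2:**
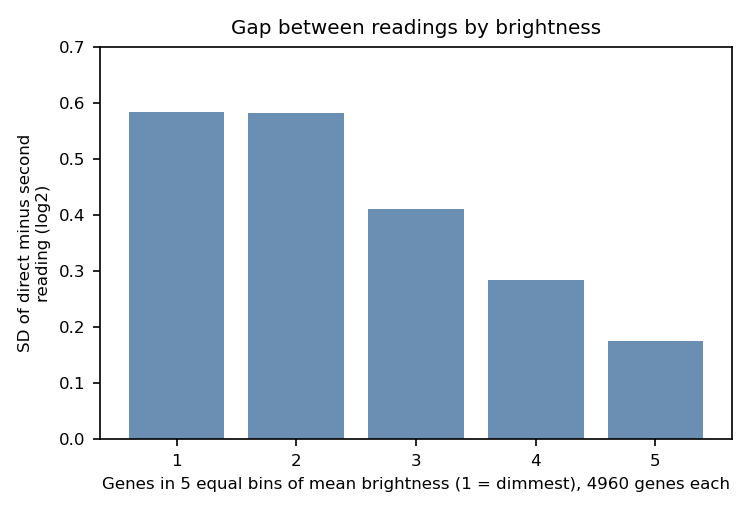
SD of the direct minus the second reading (y axis, log2) in 5 bins of genes ordered by mean brightness (x axis, 4960 genes each). The SD was 0.584 and 0.582 in the dimmer bins, 0.411 in the middle one, and 0.284 and 0.175 in the brighter bins.

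Nkx2-5 and Kdr differed in the direction that the labels give, but neither reached the rule, and the lineage markers Tnnt2 and Sox18, described with their lists, did. Nkx2-5 had a net signal of 10087 in Nkx2.5 cells against 3523.5 in Flk1 cells. On the Rex1 arrays its log2 ratio was 0.53 for Nkx2.5 cells and -0.10 for Flk1 cells. Its readings were thus 1.40 and 0.63, and the second fell short of the rule. Kdr had log2 ratios over Rex1 of 0.12 in Nkx2.5 and 0.68 in Flk1 cells and readings of -0.52 and -0.56. T, the Brachyury gene, read -0.54 and -0.90. Zfp42, which encodes Rex1, was far below the undifferentiated cells in both populations, at -1.68 and -1.76, and its readings of -0.50 and 0.07 differed in sign. The gap SD of genes as bright as these 4 was 0.284, so Kdr was lower by about the same amount in both readings and by less than 2 of these SDs in each.

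Sarcomere genes had the most calls of the 37 gene lists examined. Of 38 measured genes of the thick filament, thin filament and Z-disc, 11 were called higher and 0 lower, with a list median of 0.48 and 0.47. Positive readings on both routes were found for 25 of the 38 and negative ones for 7, while over all genes the shares were 28.2% and 29.5%, with medians of 0.00 and -0.01.

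Tnnt2, cardiac troponin T, which anchors the troponin complex to tropomyosin, had a net signal of 15308 in Nkx2.5 cells and 3194 in Flk1 cells. Its log2 ratio over Rex1 was 2.46 in Nkx2.5 cells and 0.02 in Flk1 cells. The readings of 2.29 and 2.44 correspond to 4.89-fold and 5.41-fold. Flk1 cells and undifferentiated cells thus had nearly equal Tnnt2 signal on the array they shared.

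Of the other thin filament genes, Tnnc1, the calcium-binding troponin C of heart, had net signals of 16624.5 and 5361.5 and readings of 1.49 and 1.57. Tnni1, the slow skeletal troponin I of the embryonic heart, had net signals of 19216 and 8224 and readings of 1.05 and 1.29. Tmod1, which caps the pointed end of actin, had readings of 2.30 and 1.02, a much larger direct than second value. With Tnnt2 they made 4 called members among 12 of the thin filament, whose median was 0.71 and 0.69. Tnni3, the adult cardiac troponin I, just missed the rule at 1.17 and 0.99. Actc1, cardiac actin, read 0.40 and 0.52, Tpm1 read 0.73 and 0.87, and Neb, a giant actin-binding protein of skeletal muscle, lay farthest the other way at -0.37 and -0.44.

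In the thick filament list 5 of 11 genes were called, and the median was 1.08 and 0.72. They were 4 myosin light chains and titin. Myl7, the atrial regulatory light chain, had a net signal of 23750 in Nkx2.5 cells and 6526.5 in Flk1 cells. Over Rex1 it read 2.67 in Nkx2.5 cells and 0.03 in Flk1 cells, and its readings were 1.76 and 2.64. Myl4, the atrial essential light chain, read 1.58 and 1.06, and Flk1 cells were already above Rex1 cells by 0.76 on that scale. Myl3, the ventricular essential light chain, read 1.45 and 1.11 from its brighter probe and 2.25 and 2.45 from its other one. Myl2, the ventricular regulatory light chain, read 1.08 and 1.65.

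Titin, the spring that spans from Z-disc to M-line, had 7 probes. The brightest read 1.30 and 1.10. Another 2 read 1.95 and 2.16, and 1.81 and 1.24, while the other 4 were dim, 3 of them not well above background in Nkx2.5 cells on the direct array. Ttn and Tmod1 lost their calls with the second reading taken through Bra cells, at 0.86 and 0.69. The myosin heavy chains of heart had readings near 0. Myh6 read 0.01 and 0.11, and Myh7 read 0.11 and -0.02. Mybpc3, myosin-binding protein C, read 1.19 and 0.72.

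At the Z-disc 2 of 15 genes were called, Ankrd1 at 1.72 and 1.27 and Csrp3 at 1.03 and 1.04, both of them muscle proteins that link the Z-disc to gene control. The list median was 0.15 and 0.11. Actn2, the Z-disc crosslinker alpha-actinin, read 0.52 and 0.62. Desmin (Des), the muscle intermediate filament, read 1.17 and 0.15, so its direct value was not repeated. Myoz2 lay farthest the other way at -0.41 and -0.15.

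The number of sarcomere genes that passed changed with the processing. With plain subtraction followed by loess 5 of the 38 were called. The deposited series table, whose log2 values lack loess, gave 6 calls, and signals without subtraction gave 1, which was Myl7. Tnnt2, Tnnc1, Myl3, Myl4 and Myl7 passed under each of plain subtraction and the series table. The series table gave Tnnt2 a direct value of 1.80 and Myl7 1.41, against 2.29 and 1.76 above.

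**Figure D3:**
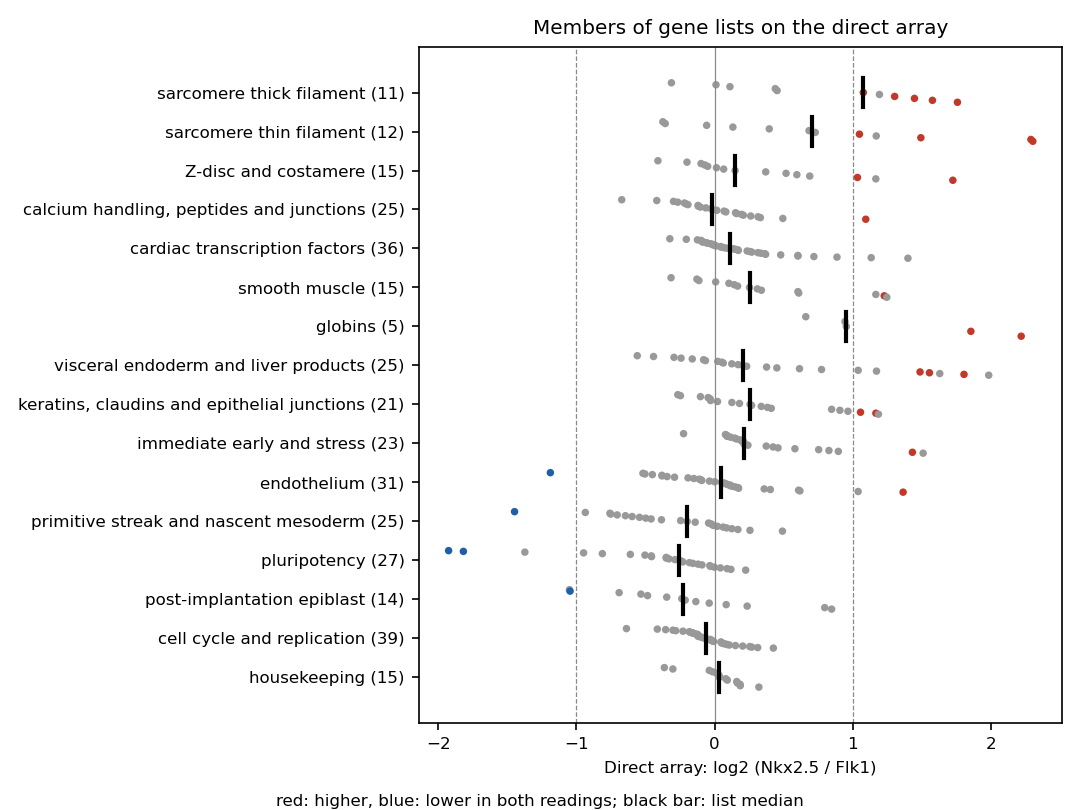
Direct reading (x axis, log2) of the measured members of 16 gene lists (y axis, number of members in brackets), with red for genes called higher and blue for genes called lower in Nkx2.5 cells; black bars are list medians and dashed lines mark the size rule. The thick filament list has its median at 1.08 and the pluripotency list at -0.26, while the housekeeping list has its median at 0.03.

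Promoters of the called sarcomere genes were read because these genes were higher together. Windows of the 250 bases before the gene start came from the RefSeq promoter table of build GRCm38.p6, which held all 11 of the called genes. A CArG box, the element named for serum response factor, was found on either strand in Myl3 and Myl7, and in 1.47% of all 32851 windows. The word of GATA factors, searched as AGATAA, was found in Myl2, Tnnt2 and Ankrd1, and in 9.99% of all windows. The MEF2 word was found in Ttn and in 3.20% of windows, and the NKX2-5 word, searched as TNAAGTG, in Csrp3 and in 10.1%. The ETS word, searched as ACCGGAAGT, was found in 0 of the 11 and in 0.804% of windows. A gene counted where any of its windows held the word, while the shares are of single windows, so they are not directly comparable. Words searched on both strands could overlap, and a match describes letters and not binding. Among the 12 highest called genes that were bright in both populations, 7 were in the table, and AGATAA occurred in 4 of them, Tnnt2, St3gal6, Dpp4 and Pakap. Among the 12 lowest 7 were in the table, and it occurred in F2rl2. Shown are the windows of the 2 light chain genes with a CArG box and of Tnnt2, the sarcomere gene that ranked highest by the smaller of its readings, 5′ to 3′ along the gene, with the word in capitals, which in Tnnt2 is the reverse complement of AGATAA. They lie at chr11:5898783-5899032 on the minus strand for Myl7, at chr9:110763428-110763677 on the plus strand for Myl3 and at chr1:135836084-135836333 on the plus strand for Tnnt2.
Myl7: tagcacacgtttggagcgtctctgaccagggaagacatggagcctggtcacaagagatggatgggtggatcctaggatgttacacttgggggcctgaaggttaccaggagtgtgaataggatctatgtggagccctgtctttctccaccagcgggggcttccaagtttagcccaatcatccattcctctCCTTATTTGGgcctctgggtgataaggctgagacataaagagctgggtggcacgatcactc
Myl3: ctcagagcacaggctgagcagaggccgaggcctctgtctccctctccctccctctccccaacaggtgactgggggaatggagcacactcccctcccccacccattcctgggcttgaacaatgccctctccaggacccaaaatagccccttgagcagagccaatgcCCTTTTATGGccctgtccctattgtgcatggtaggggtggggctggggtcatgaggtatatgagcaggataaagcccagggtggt
Tnnt2: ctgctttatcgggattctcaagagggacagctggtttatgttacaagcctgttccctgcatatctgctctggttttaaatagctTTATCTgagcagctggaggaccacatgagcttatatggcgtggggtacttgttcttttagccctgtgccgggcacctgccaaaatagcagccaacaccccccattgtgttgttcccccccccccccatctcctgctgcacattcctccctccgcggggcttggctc
The CArG box of Myl7 ends 52 bases before the gene start and that of Myl3 76 bases before it, while the Tnnt2 word ends 161 bases before it.

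Other heart genes gave fewer calls than the sarcomere genes. Over all genes 0.298% were called higher and 0.0847% lower, so 0 calls do not set a list of 36 genes apart. Among 25 genes of calcium handling, natriuretic peptides, channels and junctions 1 was called, Bves at 1.09 and 1.58, which encodes a membrane protein of heart muscle and was above background in Flk1 cells on 1 of 2 arrays, and the list median was -0.02 and 0.09. Atp2a2, the calcium pump of the sarcoplasmic reticulum, read -0.02 and 0.10, and Ryr2, its release channel, 0.02 and -0.09. The natriuretic peptide genes gave readings that did not repeat, at -0.19 and 1.34 for Nppa and 0.16 and 1.07 for Nppb. Of 36 cardiac transcription factors 0 were called in either direction, with a median of 0.11 and 0.09. After Nkx2-5 the highest direct values were those of Isl1, the factor of second heart field progenitors, at 1.13 and 0.51, and of Nr2f1 at 0.89 and -0.16. Hey2, a Notch target of the ventricle, read 0.72 and 0.94. Gata4, a core heart factor, read 0.15 and -0.41, Tbx5 read -0.01 and -0.35, and Mef2c 0.05 and 0.21. In the smooth muscle list 1 of 15 was called, Acta2, smooth muscle actin, which embryonic heart muscle also uses, with net signals of 16403 and 6218.5 and readings of 1.23 and 1.31.

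Globin genes gave calls in the higher direction alone. Of 5 measured globin genes 2 were called, and the median of the 5 was 0.95 and 1.24. Hbb-b2, an adult beta chain, had net signals of 18090 and 3826.5, log2 ratios over Rex1 of 2.12 in Nkx2.5 and 0.37 in Flk1 cells, and readings of 2.22 and 1.75. Hbb-y, an embryonic beta chain, read 1.85 and 2.26, with a Bad spot on the Flk1 over Rex1 array. Its second reading was 0.15 in the series table, and leaving out Bad spots ended its call, which left 1 of 5 globins called. Hba-a1 read 0.95 and 1.24. Hba-x read 0.66 and 1.21 from its brighter probe and 1.24 and 1.72 from its other one, with net signals of 25386.5 and 9680.5, while Hbb-bh1 read 0.94 and -0.23. Globin genes are close copies of each other, and what each probe measures of its neighbours is not known. All 5 globin probes were above background in Nkx2.5 cells on both arrays, and 1 was not in Flk1 cells on their Rex1 array. Summed over the 5, net signal was 127856 in Nkx2.5 and 54741 in Flk1 cells on the direct array, and 100570 and 14926.5 on their Rex1 arrays. These sums are not corrected for dye. For 15 housekeeping genes they were 256346 and 212276 on the direct array, and 205096 and 208220 on the Rex1 arrays.

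The list of blood regulators had a median of 0.02 and 0.02. Klf1 and Gata1, the red cell transcription factors, read 0.40 and 0.35, and 0.11 and -0.04. Alas2, the heme enzyme of red cells, read 0.93 and 0.82. Etv2, the ETS factor that starts blood and endothelium in Flk1 mesoderm, had log2 ratios over Rex1 of 1.13 in Flk1 and 0.26 in Nkx2.5 cells and readings of -1.06 and -0.87, just short of the rule. Lmo2, a regulator of early blood, read -0.58 and -0.60.

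Endothelial genes gave 1 call of 31 in each direction and a median of 0.05 and 0.01. Sox18, a SOX factor of new vessels, was the 1 called lower, with net signals of 4866 in Nkx2.5 and 6976 in Flk1 cells. Its log2 ratio over Rex1 was 1.27 in Flk1 cells and 0.20 in Nkx2.5 cells, and its readings were -1.19 and -1.07. With plain subtraction or the series table Sox18 no longer passed, with a series value of -0.98. Cldn5, the tight junction claudin of endothelium, was the 1 called higher, at 1.36 and 1.31, with net signals of 10006.5 and 3562.5. Pecam1 and Cdh5, defining surface proteins of endothelium, read 0.07 and -0.06, and 0.15 and 0.01. Tie1, a vessel receptor, read 0.62 and 0.70, and Tek, its relative, -0.29 and -0.53. Cldn5 and Sox18 were therefore called in opposite directions in a list with its median near 0.

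Products of visceral endoderm, the yolk sac epithelium that secretes plasma proteins, were among the largest differences. Of 25 genes 3 were called higher and 0 lower, with a median of 0.21 and 0.13. Spink1, a trypsin inhibitor, had net signals of 23234 and 6200, log2 ratios over Rex1 of 2.37 in Nkx2.5 and -0.74 in Flk1 cells, and readings of 1.80 and 3.11. Ttr, the thyroxine carrier transthyretin, had net signals of 22383.5 and 6978.5 and readings of 1.55 and 2.04. Apoc2, an apolipoprotein, read 1.49 and 1.48. Afp, alpha-fetoprotein, read 1.98 and 0.71, and Cubn, an uptake receptor of this epithelium, 1.63 and 0.97, both short of the rule on the second reading. Apoa1 lay farthest the other way at -0.56 and -1.23, and Alb read -0.24 and 0.17. Of 18 regulators of endoderm 0 were called in either direction. Foxa1 read 0.93 and 0.93, Foxa2 -0.17 and 0.12, Hnf4a -0.21 and -0.16, and Sox17 1.04 and 0.13. Summed net signal of the 25 product genes was 212160 in Nkx2.5 and 114399 in Flk1 cells on the direct array, and 144816 and 93823 on the Rex1 arrays. Without correction for dye, the housekeeping genes also summed higher in Nkx2.5 cells on the direct array, at 256346 and 212276. Whether other cells in the Nkx2.5 sample carried the globin and endoderm RNA was not tested.

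Krt19 and Krt18, keratins of simple epithelia, were called higher. Krt19 had net signals of 16814 and 6627 and readings of 1.17 and 1.96, and Krt18 had 26587 and 11474 and readings of 1.06 and 1.07. Their partner Krt8 read 0.96 and 1.15. Krt18 lay in a block of spots with a high median, and centring the blocks lowered its direct value to 0.56, which ended its call. These were 2 of 21 genes of the epithelial list, whose median was 0.26 and 0.17, and Cdh1 and Epcam, defining surface proteins of epithelium, read 0.18 and -0.06, and -0.10 and 0.17.

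Other genes among the 12 highest were of mixed function. S100g, a calcium-binding protein of epithelia, read 2.04 and 2.01, Dpp4, a surface peptidase, 2.31 and 1.80, and Gpc3, a glypican of growing embryonic tissue, 1.74 and 1.54. Cdo1, which degrades cysteine, read 2.22 and 1.74. Vmn1r23, a member of the vomeronasal receptor family with many close copies, read 2.04 and 3.01. St3gal6, a sialyltransferase, read 2.05 and 2.16 from its brighter probe, but 0.47 and -0.92 from its other one. Pakap read 1.81 and 1.70 from its brightest probe, but 0.59 and 0.79, and 0.44 and -0.71, from its other ones. Of 3096 genes with several probes, the direct values of the 2 brightest differed with an SD of 0.418.

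Genes measured with Flk1 cells near background include several of the higher calls. Of the 74, 17 had Flk1 cells below the limit on at least 1 of their 2 arrays. For 3 of these, Oxnad1, Olfr273 and an unnamed transcript, named here after their values were seen, Flk1 cells were below it on both, and no fold is given. Next to Hbb-y, Lrpap1, a chaperone of lipoprotein receptors, read 1.94 and 1.76, and Vldlr, one of those receptors, read 1.29 and 1.96. Centring the blocks lowered the direct value of Vldlr to 0.79, which ended its call, and that of Lrpap1 to 1.44. Mmd read 1.64 and 1.59 and Slc6a14, an amino acid transporter, 1.18 and 1.60. Spots of Mmd and Vldlr were marked Bad on both Rex1 arrays. Leaving out all Bad spots left 62 of the 74.

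Signalling genes gave 1 call in each direction. Tgfb2, a TGF-beta ligand of heart cushion formation, was higher, with net signals of 12480 and 3709.5 and readings of 1.66 and 1.30. Fst, the activin antagonist follistatin, was lower, with net signals of 4441 in Nkx2.5 and 8048 in Flk1 cells. Over Rex1 Fst read 1.90 in Flk1 cells and -0.04 in Nkx2.5 cells, and its readings were -1.62 and -1.93. These were the 2 called genes of 21 in the Nodal, activin and TGF-beta list, whose median was -0.01 and -0.11. None of the 41 Wnt, 29 BMP, 23 Notch, 28 FGF and 33 VEGF and guidance genes was called in either direction. Over all genes 0.298% were called higher and 0.0847% lower, so 0 calls do not set lists of this size apart. Among BMP genes Bmp4, a ligand of mesoderm and heart, read 1.10 and 0.92. The Wnt antagonist Notum read 1.53 and -0.33, and the guidance ligand Slit2 1.19 and -0.29, so these direct values were not repeated. Of 31 Hox genes 0 were called.

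Pluripotency genes gave calls in the lower direction alone. Of 27 genes 2 were called lower and 0 higher, the median was -0.26 and -0.24, and 19 were negative on both routes and 3 positive. Dppa2, a chromatin protein of stem cells, had net signals of 3638 in Nkx2.5 and 7015.5 in Flk1 cells. Its log2 ratio over Rex1 was -1.11 in Flk1 cells and -3.38 in Nkx2.5 cells, and its readings were -1.82 and -2.26. Rex2, a zinc finger gene of stem cells, was at -1.48 and -3.00 over Rex1 and read -1.92 and -1.52. Nanog, a core pluripotency factor, read -0.95 and -1.83 and missed the rule on the direct array, while Gdf3, a TGF-beta ligand of stem cells, read -1.37 and -0.81. Pou5f1, which encodes Oct4, read -0.26 and -0.26, and Sox2 -0.23 and -0.01.

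The epiblast and streak lists gave 1 call each, both lower, beside 0.0847% of all genes called lower. Dnmt3b, the de novo DNA methyltransferase of epiblast, had net signals of 9485 and 14803 and readings of -1.05 and -1.59, and its other probes read -1.19 and -1.56, and -1.16 and -1.93. It was the 1 called of 14 epiblast genes, whose median was -0.22 and -0.11, with Otx2 just short at -1.05 and -0.98. Of 25 streak and nascent mesoderm genes 1 was called lower and 0 higher, with a median of -0.20 and -0.12. That gene, Mixl1, a homeobox gene of the streak, had net signals of 5264 and 9075, log2 ratios over Rex1 of 0.89 in Flk1 and -0.38 in Nkx2.5 cells, and readings of -1.45 and -1.27. With the second reading taken through Bra cells, neither Mixl1 nor Dnmt3b was called, at -0.85 and -0.94. Eomes read -0.93 and -0.68 and Fgf8, a streak ligand, -0.64 and -1.29. Mesp1, the early cardiac mesoderm factor, read -0.60 and -0.08.

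The lower genes differed in where Flk1 cells stood relative to undifferentiated cells. Of the 21, 7 had a log2 ratio of Flk1 over Rex1 of at least 0.5, and in these 7 the ratio of Nkx2.5 over Rex1 was above -1. The named ones were Fst, Sox18, Mixl1, Crym and Dnmt3b. Another 5 were at -0.5 or less in Flk1 cells and at -1 or less in Nkx2.5 cells, among them Dppa2, Rex2, Enpp3 and Zfp979. The remaining 9 lay within 0.5 of 0 in Flk1 cells. Of the 74 higher genes 50 lay within 0.5 of 0 in Flk1 cells and 60 reached 1 over Rex1 in Nkx2.5 cells, with medians of 0.02 and 1.49. Among the 74, 17 had Flk1 cells below the background limit on at least 1 array. Spots were marked Bad for 11 of the 74 on the Flk1 over Rex1 array and for 7 on the Nkx2.5 over Rex1 array. For a gene dim in both channels a ratio near 0 does not show equal RNA. The split at 0.5 was chosen after the values were seen, and these arrays also make up the second reading.

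**Figure D4:**
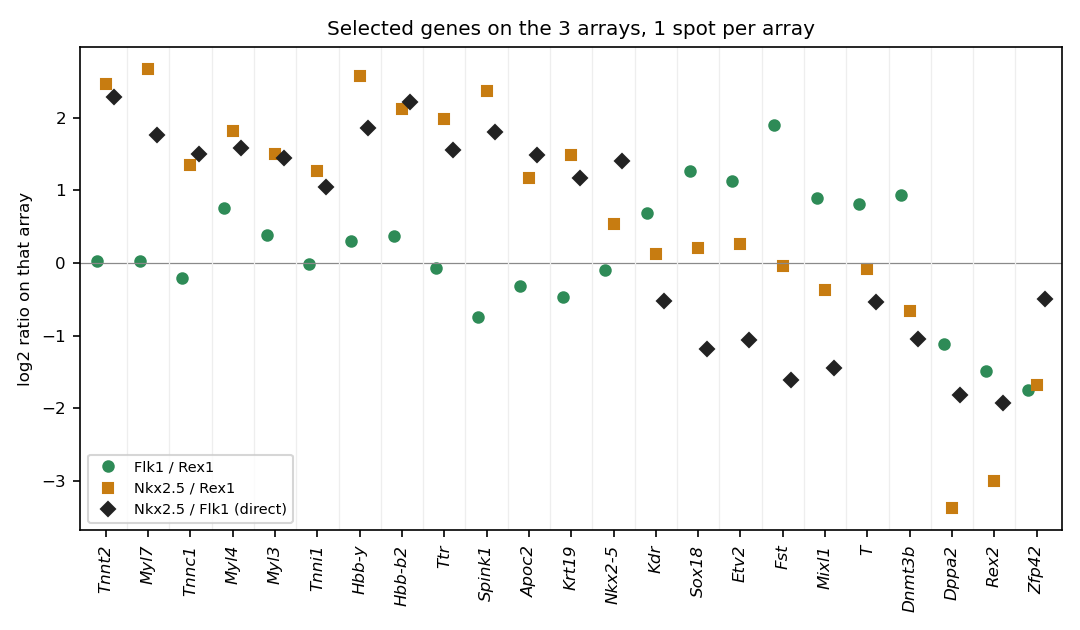
Log2 ratio (y axis) of 23 selected genes (x axis) on the Flk1 over Rex1, Nkx2.5 over Rex1 and direct Nkx2.5 over Flk1 arrays, 1 spot per gene and array. Tnnt2 and Myl7 are at 0.02 and 0.03 in Flk1 over Rex1 and above 2.4 in Nkx2.5 over Rex1, Fst is at 1.90 and -0.04, and Dppa2 at -1.11 and -3.38.

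The other named genes among the 12 lowest were Enpp3, an ectonucleotidase, at -1.36 and -1.75 from its brighter probe and -0.10 and -1.04 from its other one, and Crym, a thyroid hormone-binding crystallin, at -1.35 and -1.28. Reg1, a secreted lectin of pancreas, read -1.29 and -1.38, Stat4, a cytokine signal transducer, -1.25 and -1.34, and F2rl2, a thrombin receptor, -1.22 and -1.51. Henmt1, which methylates small RNAs of germ cells, read -1.20 and -1.65, and the zinc finger gene Zfp979 -1.16 and -1.06. Pmaip1, the cell death gene Noxa, read -1.06 and -1.15, and Syt1, a synaptic vesicle protein, -1.03 and -1.44, each with Nkx2.5 cells above background on 1 of their 2 arrays. Through Bra cells the second readings of F2rl2, Stat4, Zfp979 and Syt1 were -0.89, -0.68, -0.98 and -0.50, which ended their calls.

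Immediate early genes, which respond within minutes to stress or cell handling, mostly had positive readings. Of 23 genes 18 were positive on both routes and 1 was negative, the median was 0.21 and 0.33, and 1 was called, Atf3, with net signals of 9369.5 and 3244.5 and readings of 1.43 and 1.74. Through Bra cells its second reading was 0.93, which ended the call. Jun read 1.51 and 0.90. Their part in the other differences was not tested. Of 39 cell cycle and replication genes 0 were called, and 24 were negative and 8 positive on both routes, with a median of -0.06 and -0.16. Mki67, which marks cycling cells, read 0.43 and 0.47. In metabolism Eno3, the muscle enolase, was the 1 called of 22 glycolytic genes, at 1.07 and 1.74, and 0 of 30 oxidative genes were called. None of 26 neural, 16 paraxial and skeletal muscle, 8 epicardial, 34 matrix, 12 fibroblast feeder, 8 germ cell, 17 imprinted and 15 housekeeping genes was called. With 0.298% of all genes called higher and 0.0847% lower, 0 calls in such short lists say little about them.

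The readings differed most, among genes bright in all channels used, for Olfr1434 at 1.52 and -0.72, Areg at -0.95 and 1.07, Ifnar1 at 1.07 and -0.90 and Crim1 at 0.75 and -1.20. With blocks centred the direct values were 1.18 for Olfr1434, -0.91 for Areg, 0.73 for Ifnar1 and 0.35 for Crim1. Each gene had readings of opposite sign on separate arrays, so a single array was not enough to place them. In the deposited series table the column of the direct comparison ran from -2.49 to 2.44 over 28333 of these probes, with a median of -0.07, and 243 probes reached 1 and 132 reached -1. By the values used above 382 probes reached 1 and 65 reached -1. The series table therefore split large probe differences more evenly between the directions.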

How the data were processed

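Total RNA of isolated cells was amplified and coupled to Cy3 or Cy5, per the labels' protocols, and hybridised to 5 arrays of 30000 spots. Per the file headers, each channel's deposited intensity comprises a net median and a background, the latter with 1 value for each of 48 blocks. The deposited ratio is Cy5 over Cy3 and is 0 at spots marked Bad. In the series table the deposited log2 values equal the log2 of that ratio plus a constant of -0.09 on the direct array. That the table holds values for 96 Bad spots of this array has no stated origin. The scanner software and gene build were not found in the labels or headers.

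Foreground, rebuilt as net signal plus background, was corrected with normexp (offset 50) and normalised by loess within each array in limma 3.58.1 (R 4.3.3), where control spots had weight 0; tables were made in Python 3.11.15. Bad spots were kept. Well above background means a net signal over percentile 95 of 96 negative control spots. Probes were named through RefSeq's gene table of assembly GRCm38.p6, with matches by accession for 8054, symbol for 5227 and unique synonym for 5081, while 559 kept the file's name and 9924 stayed unnamed. The size rule was also run on simulated spots, with changes placed in bright spots alone and without the background limit. That run cannot show how the rule performs on dim genes.

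The brightest probe stood for each gene, and a call needed both readings at 1 in size. No test was made, since no pair was hybridised more than once. Named genes were the population markers, Tnnt2 and Sox18, the 12 highest and 12 lowest calls bright in both populations, up to 6 a side dim in the other, called list members, the member of each list farthest against its majority and the 4 genes whose readings differed most. Other list members were named after their values were seen. Of 737 genes in 37 lists 709 were on the array. The comparison, members and lists were chosen with earlier results of these data known. Another gene under this rule is not reported here. Other settings tried are given in the closing section.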

Additional observations from a re-analysis of the deposited data

Results flagged for a closer look

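Signal appeared on the direct array in spots without a probe, which none of the comparisons use. Of 224 such spots 9 were brighter in Cy5 than the brightest negative control spot, and 3 were brighter in Cy3. The brightest spot without a probe had a net signal of 3719 in Cy5 and 2176.5 in Cy3, against 1295.5 and 1290 for the brightest negative control.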

How the results depend on the processing

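No paired analysis was possible because no pair of populations was hybridised on more than 1 array. Without background subtraction 3 genes were called higher and 0 lower, 1 of them a sarcomere gene, with 0 endothelial genes lower. The gap between readings then had an SD of 0.109, and the sarcomere and endothelium list medians were 0.20 and -0.026. With plain subtraction 51 genes were called higher and 11 lower, 38 and 9 of them among the calls above, with 5 sarcomere and 0 endothelial genes and a sarcomere median of 0.39. The deposited series table gave 36 genes higher and 14 lower, 33 and 10 of them shared, with 6 sarcomere and 0 endothelial genes and medians of 0.33 and -0.030. A size rule of 0.6 gave 252 genes higher and 135 lower. The direct reading alone, with the background limit kept, gave 285 and 51. The sarcomere median was 0.56 over the median of a gene's probes and 0.46 with blocks centred, a setting added after the data were seen, and the endothelium median was -0.018 over genes bright in both populations. The second reading through Bra gave 92 genes higher and 19 lower, of which 60 and 13 were shared. The causes of these changes were not tested. Counts stayed within 1.5 times of those above for normexp with offset 0, median centring, median over probes, both populations bright, no filter on dim probes, percentile 99, leaving out Bad spots and centring blocks. A similar count can hide changed members. With blocks centred 65 genes were called higher and 23 lower, but 58 of the 74 and 19 of the 21 calls above were kept. Among the 51 called genes taken by the naming rule, the direct value kept its sign in each setting that gave one. Outside the rule, Oxnad1 had a direct value of -0.02 without background subtraction, and Olfr273 a second reading of -0.23 in the series table. Of those 51 genes 2 stayed called without background subtraction, 32 with plain subtraction, 30 in the series table, which lacks another 2, and 42 through Bra. Dim genes are limited by the disagreement between arrays, largest in the dimmest genes.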
